A study of Homo sapiens with 6 samples.

Results

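The 77 genes described here encode the proteins of the cytosolic ribosome. They were chosen from the 58735 genes of the deposited table by name alone, as protein-coding genes whose symbol is RPS or RPL with a number and at most an A or X behind it, together with RPSA, RPLP0, RPLP1 and RPLP2. Of these, 31 encode small subunit proteins and 46 encode large subunit proteins, and they lie on 21 chromosomes. They were measured by RNA-seq in MG63, an established human osteosarcoma cell line, in 2 groups of 3 samples: cells transfected with siRNA against FUBP1 (siFUBP1) and cells transfected with a negative control (siMock), with RNA taken 48 h later. FUBP1 is a nuclear protein that binds single-stranded nucleic acids. All samples are of the same line, nothing in the labels says that the replicates are separate cultures, and the study's text does not name which of its FUBP1 siRNAs was sequenced, so the p-values below measure the spread between these samples.

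A ribosome carries a single copy of nearly every one of these proteins, each from its own gene. Their mRNAs are among the most abundant of a dividing cell. Most start with a C followed by a run of pyrimidines, called a TOP tract, through which their translation is switched together with nutrient supply by mTORC1. Many of the genes also carry a small nucleolar RNA in an intron, and most have left processed pseudogenes, which are copies of the mRNA inserted elsewhere in the genome. Free ribosomal proteins have roles of their own: RPL5 and RPL11, bound to the smallest ribosomal RNA, can hold MDM2 and so stabilise p53.

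The first bases of these mRNAs show the tract. RefSeq gives a transcription start for 62 of the 77 genes on GRCh38.p14, and at 46 of them (74.2%) at least 1 listed start was a C followed by 4 or more bases that were each C or T, read on the transcribed strand. The same search found such a start in 5.14% of the 27305 genes of that table and in 8.70% of the 69 mitochondrial ribosomal protein genes with a start. The lines below run from 10 bases before the start to 20 bases after it, with the tract in capitals. They show the pair that fell most, the next pair that fell and a pair that rose. After these come an uncalled gene with a tract, an uncalled gene whose tract was too short for the rule, and RPL26 with its paralog RPL26L1, which rose.
RPL10, chrX:154398367-154398396, plus strand: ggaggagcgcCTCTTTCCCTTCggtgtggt
RPLP1, chr15:69452808-69452837, plus strand: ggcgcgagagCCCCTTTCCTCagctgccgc
RPS19, chr19:41860245-41860274, plus strand: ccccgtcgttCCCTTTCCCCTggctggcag
RPL41, chr12:56116623-56116652, plus strand: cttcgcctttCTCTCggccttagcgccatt
RPL11, chr1:23691796-23691825, plus strand: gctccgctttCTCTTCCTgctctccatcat
RPL34, chr4:108620566-108620595, plus strand: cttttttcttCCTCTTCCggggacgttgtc
RPS6, chr9:19380217-19380246, minus strand: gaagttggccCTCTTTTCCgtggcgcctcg
RPL3, chr22:39319604-39319633, minus strand: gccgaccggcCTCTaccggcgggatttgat
RPL26, chr17:8383174-8383203, minus strand: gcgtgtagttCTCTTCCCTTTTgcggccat
RPL26L1, chr5:172958719-172958748, plus strand: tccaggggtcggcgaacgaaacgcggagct
Where RefSeq lists several starts, as for RPL10, RPL11, RPL34 and RPS19, the start with the tract is shown, and neither start of RPL26L1 had a tract. The tract was found at 2 of the 2 genes with a listed start that rose, 15 of the 18 that fell and 29 of the 42 that were not called. Genes of each kind therefore carried it, the pair that fell most included.

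The samples held between 16309900 and 17484313 counts. FUBP1 mRNA was low in every knockdown sample (749 to 926 counts, next to 3872 to 4331 in the controls). Levels are given as CPM, the counts scaled to a common library size with edgeR's TMM factors, and fold changes as log2 of siFUBP1 over siMock. The quasi-likelihood test of edgeR was run on the 16116 genes that passed the filter on low counts, and calls were made where the p adjusted over all of them by Benjamini and Hochberg's method was below 0.05. Of the markers of the line, VIM, FN1 and COL1A1 were counted in every sample, whereas COL1A2 had 0 counts in all 6, which allows up to 0.184 CPM in the shallowest sample, and SPARC had at most 5 counts. The 4 of the 6 markers of the line that passed the filter had log2 fold changes from -1.31 to 3.15. PTPRC, which marks blood cells, had at most 2 counts, and the epithelial marker EPCAM had 59 to 83. Of the 7 markers listed for blood, epithelium and endothelium, 3 passed the filter, so PTPRC does not stand for all of them. In bulk RNA, fewer cells expressing a gene and less RNA of it per cell cannot be told apart.

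After FUBP1 knockdown, 20 of the 77 ribosomal protein genes fell, 3 rose and 54 were not called, though scaling by total count alone gave 12 lower and 12 higher. All 77 had passed the filter. Among all tested genes 30.1% were called lower and 30.1% higher, which together makes 60.2%. The ribosomal protein genes were called in 29.9%, with 26.0% lower and 3.90% higher. Most of their differences were small. Their median log2 fold change was -0.09 against 0.00 for all genes, and the median of its absolute value was 0.12 against 0.44. Among genes with a mean of at least 100 CPM, 31.0% of the 71 ribosomal protein genes were called, against 70.9% of the 2353 genes at that level.

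Under TMM scaling the differences had narrow intervals. These hold the spread between samples and leave out shifts from another scaling or correction. The standard error of the log2 fold change had a median of 0.085 over the 77 genes. The 95% interval lay inside ±0.5 for 61 of them, and for 52 of the 54 that were not called. RPL3, which lies near the catalytic centre, had a log2 fold change of 0.00 with an interval from -0.17 to 0.17, with 1332, 1212 and 1303 CPM in siMock and 1364, 1222 and 1269 in siFUBP1. RPS6, the substrate of S6 kinase, had 0.04 with an interval from -0.12 to 0.21. With a correction for GC content and length of the mRNA, RPS6 had -0.19, outside that interval (adjusted p = 0.0091, edgeR). Only RPL10 and RPLP1 passed the threshold with an absolute log2 fold change above 1, that is 2 of 77, against 17.3% of all tested genes under that rule (9.13% lower and 8.16% higher). The other 75 genes lay within ±0.53.

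**Figure D1:**
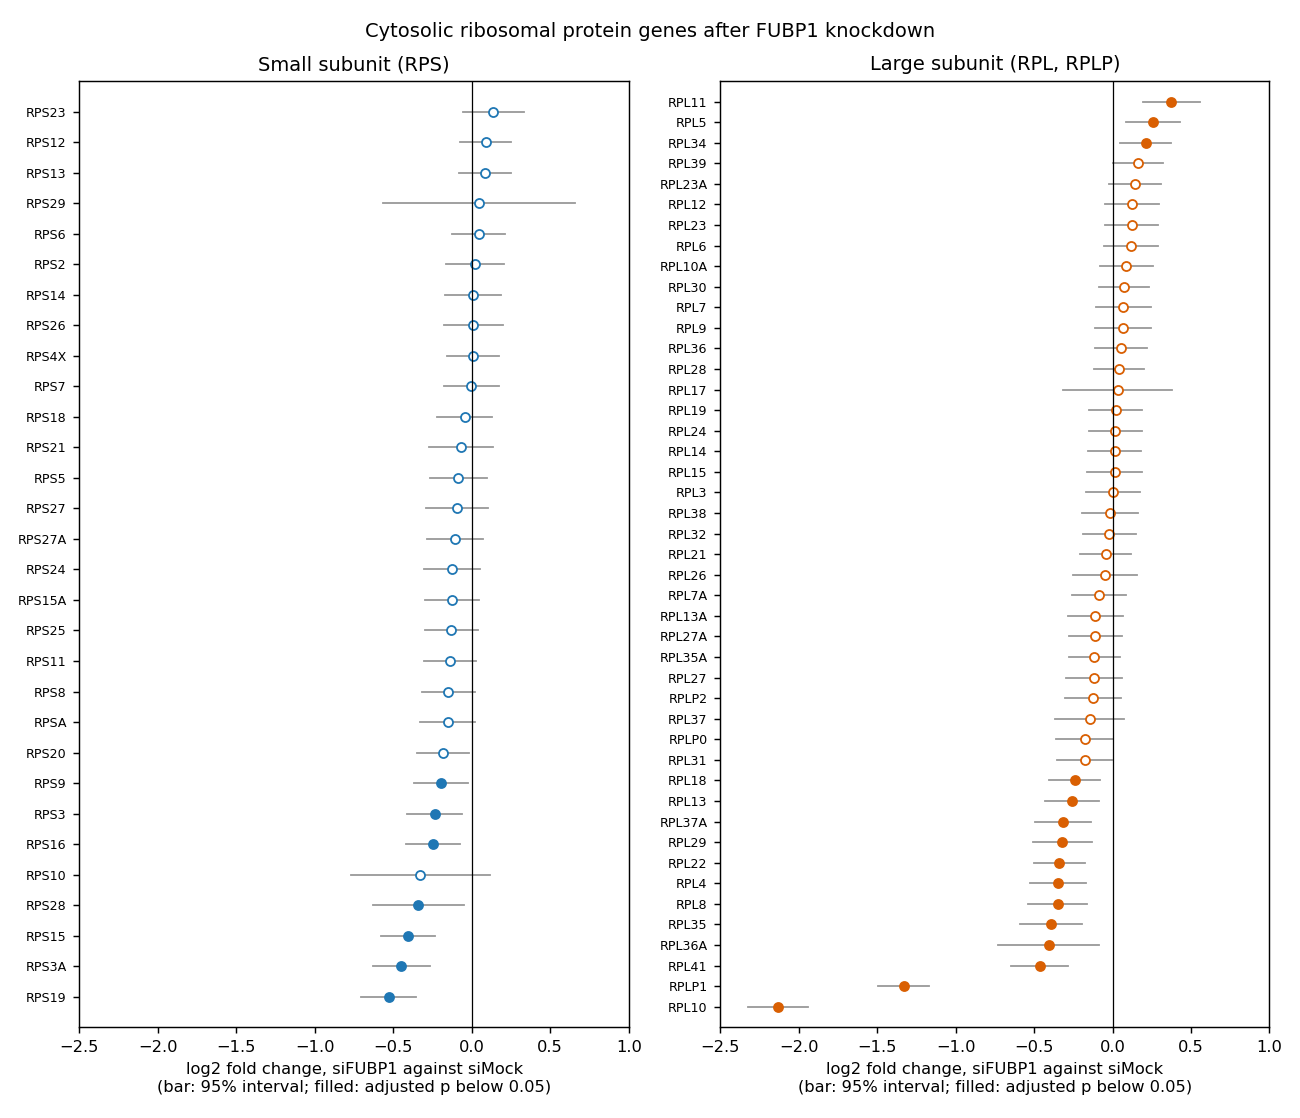
Log2 fold change (siFUBP1 over siMock, horizontal axis) of 30 of the 31 small subunit genes (left) and 45 of the 46 large subunit genes (right), with bars for the 95% interval and filled points for genes called at an adjusted p below 0.05. RPL10 at -2.13 and RPLP1 at -1.33 stand apart from the other genes; of all 77 genes 20 are called lower and 3 higher under TMM scaling, and 12 and 12 under total-count scaling.

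RPL10 fell to 22.8% of its siMock level. It is the large subunit protein that joins late, completes the catalytic centre and is needed for the subunits to associate. The gene (ENSG00000147403, GRCh38 chromosome X, 154389955 to 154409168, plus strand) had 971, 903 and 936 CPM in siMock and 225, 180 and 237 CPM in siFUBP1. The groups were far apart, and no siFUBP1 sample came near the lowest siMock sample. The log2 fold change was -2.13 (SE 0.093, adjusted p = 4.6e-16, edgeR), and only 18 of the tested genes with a mean of at least 100 CPM had a lower value. RPL10 shares 1649 of its 4825 exonic bases with DNASE1L1 on the opposite strand, and the counting is not stated to use strand. DNASE1L1 itself had a log2 fold change of 0.87 (adjusted p = 5.4e-09, edgeR).

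Processed copies of RPL10 fell with it. RPL10P9 on chromosome 5 (168616352 to 168616996) had 134, 159 and 116 CPM in siMock and 35.5, 24.9 and 28.5 CPM in siFUBP1. RPL10P16 on chromosome 19 (12643275 to 12643919) had 110, 96.0 and 113 CPM in siMock and 23.4, 19.2 and 24.5 CPM in siFUBP1. Their log2 fold changes were -2.20 (SE 0.13, adjusted p = 4.3e-09, edgeR) and -2.25 (SE 0.098, adjusted p = 4.5e-16, edgeR), close to that of RPL10. The 19 copies together had 243 ± 12.7 CPM in siMock and 52.4 ± 7.60 CPM in siFUBP1 (SD, n = 3 each). Reads of the gene and of its near-identical copies may be split between them by the counting, so the 3 values are not independent measurements.

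RPLP1 fell to 39.8% of its siMock level. With RPLP2 it forms the dimers of the stalk, the flexible arm of the large subunit that recruits elongation factors. The gene (ENSG00000137818, chromosome 15, 69452784 to 69456194, plus strand) had 1037, 1000 and 981 CPM in siMock and 417, 402 and 381 CPM in siFUBP1. Within each group the samples differed little, and the groups lay far apart. The log2 fold change was -1.33 (SE 0.079, adjusted p = 1.6e-13, edgeR). The partner RPLP2 had 309, 334 and 262 CPM in siMock and 290, 288 and 255 CPM in siFUBP1, which overlap. Its log2 fold change was -0.12 (adjusted p = 0.23, edgeR). The stalk base proteins RPLP0 and RPL12 had -0.18 and 0.13 and were not called either. Thus 1 of the 4 stalk genes fell, next to 30.1% of all tested genes called lower. The copy RPLP1P6 rose, from 9, 5 and 3 counts to 23, 26 and 39, against 6652 to 17000 on RPLP1.

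The longest stretch complementary to any of the 3 FUBP1 siRNAs listed by the study was 19 bases in FUBP1 mRNA and at most 10 bases in any of the 77 mRNAs. It was 8 bases in RPL10 and 9 bases in RPLP1, next to a median of 8 over the 77. Matches to a guide's seed (bases 2 to 8 of the antisense strand) occurred in 53 of the 77 mRNAs, among them 1 in RPL10 for siRNA 1, and 1 in RPLP1 for siRNA 2 and 2 for siRNA 3. Their part in the result was not tested.

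**Figure D2:**
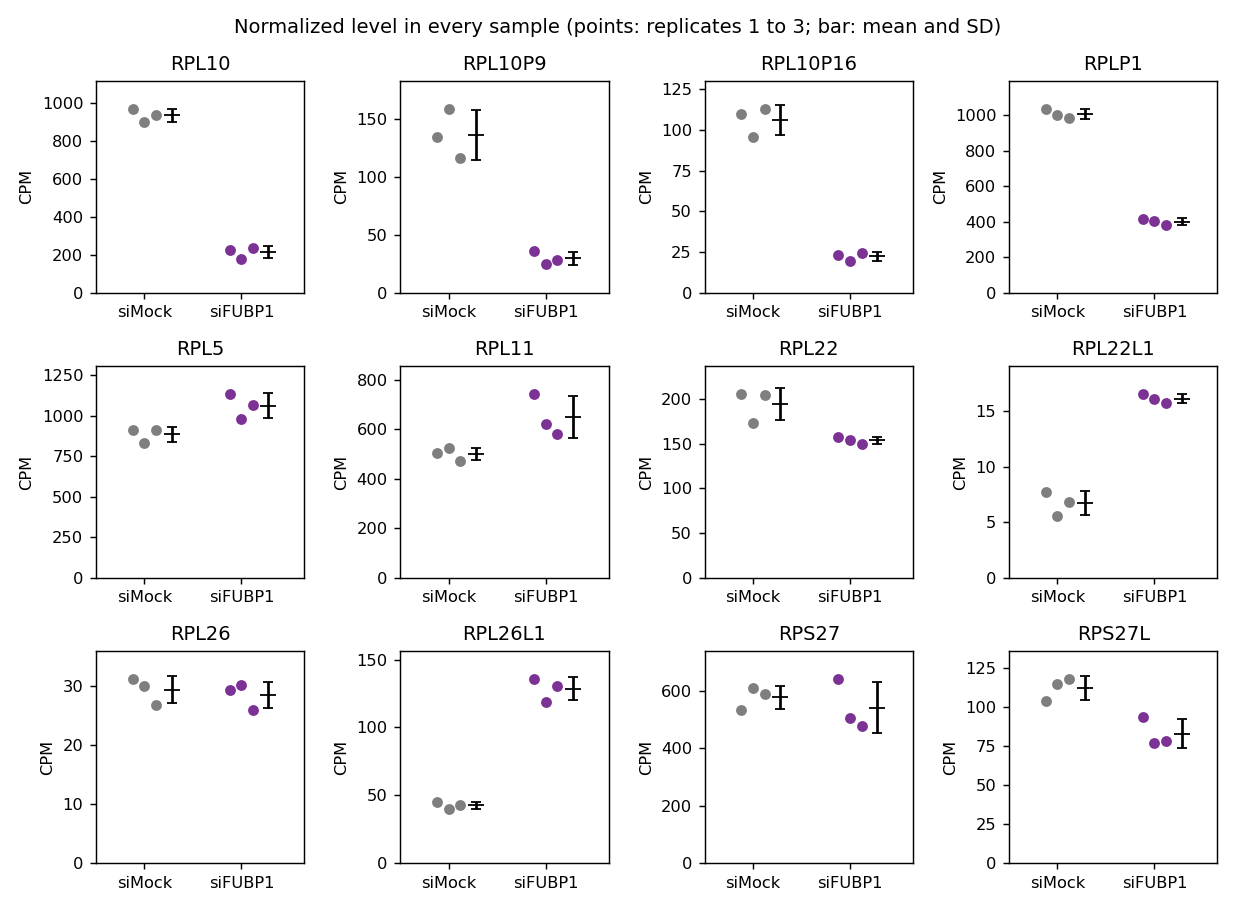
Normalized level (CPM, vertical axes from 0) of 12 genes in the 3 siMock and 3 siFUBP1 samples, with points for replicates and a bar for mean and SD. RPL10, both of its copies and RPLP1 fell in every siFUBP1 sample, RPL26L1 and RPL22L1 rose in every one, and the siFUBP1 samples of RPL5 and RPL11 lie above the siMock samples by a smaller margin.

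The other 18 genes that fell had log2 fold changes from -0.53 to -0.20, and their calls were not equally firm. RPS9, at the -0.20 end (adjusted p = 0.043, edgeR), lost its call in 13 of 20 alternative fits, and RPS16 in 4. RPS19, RPL41 and RPS3A kept theirs in all 20. RPS19, a small subunit protein whose loss causes Diamond-Blackfan anaemia, had 937, 818 and 845 CPM in siMock and 655, 571 and 574 CPM in siFUBP1. Its log2 fold change was -0.53 (SE 0.084, adjusted p = 5.35e-06, edgeR), with no overlap of the groups. RPL41, the smallest of the proteins, had 985, 846 and 939 CPM in siMock and 738, 599 and 673 CPM in siFUBP1, with a log2 fold change of -0.46 (adjusted p = 5.9e-05, edgeR). RPS3A followed with -0.45, from 635, 552 and 656 CPM to 492, 395 and 463 CPM. In each of these genes the highest siFUBP1 sample stayed below the lowest siMock sample.

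RPS15, RPL36A, RPL35, RPL8 and RPL4 complete the 10 lowest values, between -0.41 and -0.35. RPL4, which lines the exit tunnel, fell from 1833 ± 85.7 CPM to 1443 ± 126 CPM (SD, n = 3 each). RPL35, also at the tunnel exit, fell from 797 ± 82.7 CPM to 608 ± 79.8 CPM (SD, n = 3 each). Of the 8 genes of the exit tunnel, RPL4 and RPL35 fell, next to 30.1% of all tested genes called lower. The other 6 were not called, with RPL39 at 0.16 and RPL26 at -0.05. At the mRNA entry site RPS3 fell by 0.24 on the log2 scale, and RPS2 had 0.02; the call of RPS3 was lost without siMock replicate 1 (adjusted p = 0.075, edgeR), siFUBP1 replicate 2 (0.052) or siFUBP1 replicate 3 (0.081) and with total counts (0.14). RPL36A rests on few reads, with 104 to 184 counts per sample, and its call was lost without siFUBP1 replicate 1 (log2 fold change -0.24, adjusted p = 0.22, edgeR) and without siMock replicate 1 or 3 (adjusted p = 0.080 and 0.074, edgeR). Without siMock replicate 1, 12 of the 77 genes were called lower.

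The genes that rose were RPL11, RPL5 and RPL34. RPL11 and RPL5 together with the smallest ribosomal RNA form the particle that can bind MDM2, and they were the pair with the highest log2 fold changes of the 77. RPL11 (ENSG00000142676, chromosome 1, 23691742 to 23696835, plus strand) had 505, 522 and 472 CPM in siMock and 743, 621 and 582 CPM in siFUBP1. Its log2 fold change was 0.38 (SE 0.088, adjusted p = 0.00064, edgeR). RPL5 (ENSG00000122406, chromosome 1, 92831983 to 92841924, plus strand) had 913, 834 and 914 CPM in siMock and 1137, 982 and 1066 CPM in siFUBP1. Its log2 fold change was 0.26 (SE 0.083, adjusted p = 0.0088, edgeR). RPL34, also of the large subunit, went from 262, 268 and 275 CPM to 341, 299 and 292 CPM, with a log2 fold change of 0.21 (adjusted p = 0.023, edgeR). In none of these did the groups overlap.

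RPL23, which can also bind MDM2, had 0.12 and was not called. The remaining genes of the 10 highest, RPL39, RPL23A, RPS23, RPL12, RPL6 and RPS12, lay between 0.16 and 0.09 and were not called. RPL11 was called at an adjusted p below 0.05 in all 20 alternative fits (edgeR, DESeq2 and limma), though its 0.38 lies under the absolute log2 fold change of 1 that a stricter call asks for. In contrast, RPL5 was not called without siMock replicate 2 (0.22, adjusted p = 0.064, edgeR), and RPL34 was not called without siMock replicate 1 or 2 or siFUBP1 replicate 1. After a correction for the GC content and length of the mRNA, RPL5 had 0.06 (adjusted p = 0.44, edgeR) and RPL34 had 0.04 (adjusted p = 0.62, edgeR).

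The same correction changed many of the small calls. With it 33 genes were called lower and 3 higher; 15 of the 33 were among the 20 called without it. RPL10, RPLP1, RPS19, RPL41 and RPS3A kept their calls, and RPL8, RPS28, RPL18 and RPS9 were among those that lost theirs. RPS6 then had a log2 fold change of -0.19 (adjusted p = 0.0091, edgeR). Across the 77 genes the log2 fold change had a Spearman's rho of -0.29 with the GC content of the mRNA, against -0.21 across 16109 tested genes, in libraries that all these genes share. Of the 12 ribosomal protein genes on chromosome 19, 7 fell, against 13 of the 65 elsewhere.

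The summed level of the 77 genes did not separate the groups. The share of all counts on the 77 genes was 5.17%, 4.86% and 4.87% in siMock and 5.23%, 4.65% and 4.61% in siFUBP1. The mean was 4.97% ± 0.177 (SD, n = 3) in siMock and 4.83% ± 0.347 (SD, n = 3) in siFUBP1, and the groups overlapped. siFUBP1 replicate 1 was the highest of its group for 72 of the 77 genes, and siMock replicate 1 for 45. Without siFUBP1 replicate 1, 24 genes were called lower and 2 higher, and the median log2 fold change was -0.16. That median was -0.06 without siMock replicate 1 and -0.05 without siFUBP1 replicate 2. The siMock and siFUBP1 ranges were apart for 24 of the 77 genes (31.2%), against 63.9% of all tested genes (31.7% lower and 32.2% higher). The share of counts on the mitochondrial genome was 5.75%, 5.60% and 6.59% in siMock and 4.88%, 3.98% and 4.63% in siFUBP1, and without its genes 21 ribosomal protein genes were called lower and 3 higher.

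**Figure D3:**
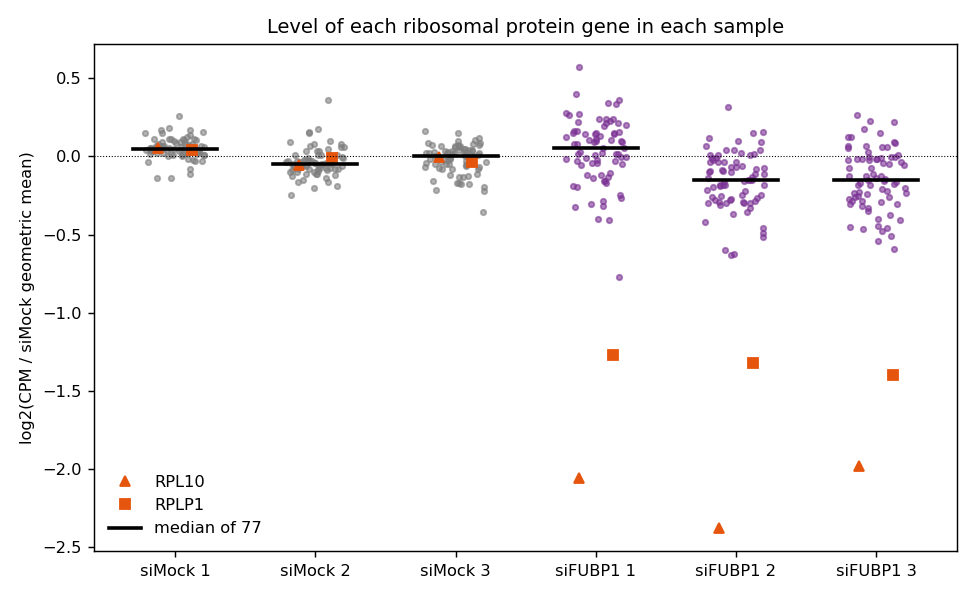
Level of each of the 77 genes in each sample as log2 of its CPM over the geometric mean of the siMock samples (vertical axis), with black lines for the median of the 77. The median is 0.05 in siFUBP1 replicate 1 and -0.15 in siFUBP1 replicates 2 and 3, and RPL10 and RPLP1 lie far below it in all 3 siFUBP1 samples.

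Both subunits held genes that fell. The share called was 22.6% for the small and 34.8% for the large subunit, against 60.2% of all tested genes (30.1% in each direction). Of the 31 small subunit genes 7 fell and none rose, with a median log2 fold change of -0.11, and scaling by total count brought that median to -0.01. Leaving out siFUBP1 replicate 1, 2 or 3 gave -0.18, -0.05 and -0.07 for the small subunit. Of the 46 large subunit genes 13 fell and 3 rose, with a median of -0.05, which became 0.05 with total counts, -0.10 without siFUBP1 replicate 1, -0.09 without siMock replicate 3 and -0.02 without siFUBP1 replicate 2. Small nucleolar RNAs lie inside 28 of the genes, of which 6 fell and 1 rose, next to 14 and 2 of the other 49. RPL10 carries SNORA70, and RPL5 carries SNORA66 and SNORD21. Of the 19 genes listed for Diamond-Blackfan anaemia, RPS19, RPS28, RPL18 and RPL35 fell, RPL5 and RPL11 rose and 13 were not called. That is 31.6% called, next to 60.2% of all tested genes. The siMock and siFUBP1 ranges of RPS28 overlapped. With the GC and length correction RPS19, RPL35 and RPL11 kept their calls, and RPS28, RPL18 and RPL5 lost theirs.

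Levels per length covered a wide range. The highest mean FPKM, which divides the fragments by gene length and library size, were those of RPL41 (725), RPL7A (671), RPS2 (598), RPS12 (546) and RPL19 (542), and the median of the 77 was 180. Among the lowest were those of RPS10 (1.43), RPL36A (2.31), RPL17 (2.81), RPL26 (11.4) and RPS15A (13.2). These 5 are among the 6 genes whose mRNA shares more than 25% of its bases with another protein-coding gene on the same strand, such as 37.8% for RPL36A and 81.5% for RPL17, and the 6 have the 6 lowest levels. The other 71 genes share at most 11.1% and start at 18.98 FPKM. The length in FPKM is that of all annotated exons joined, so ranks by FPKM also depend on the annotation. For RPS29, the gene at 18.98, that length was 9845 bases, against 296 in the 1 transcript used for its mRNA. RPLP0 had the highest mean CPM in siMock (1993) and rank 9 by FPKM. The overlapping genes themselves, such as the read-through genes RPS10-NUDT3 and RPL17-C18orf32, had at most 2 counts over all samples. How the counting treated reads on exons that belong to both genes is not given in the sources used here.

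**Figure D4:**
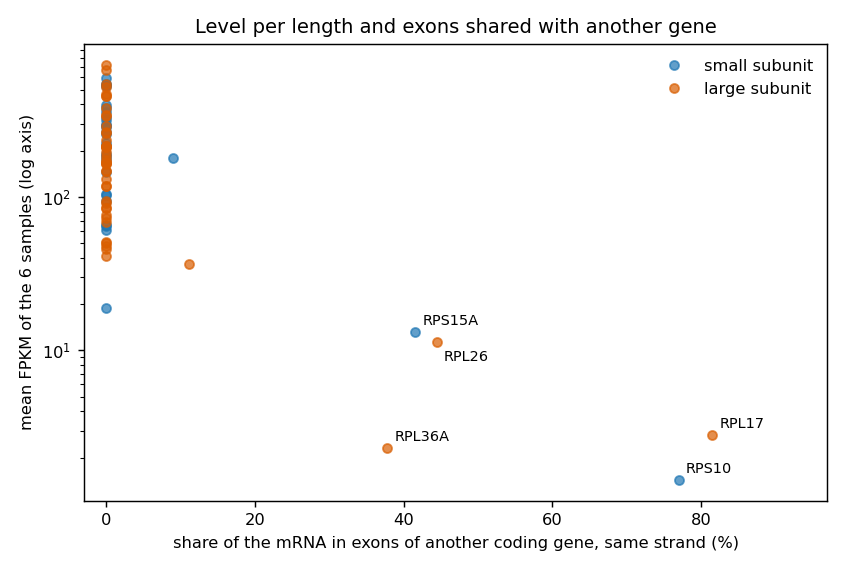
Mean FPKM of the 6 samples (vertical log axis) against the share of the mRNA that lies in exons of another coding gene on the same strand (horizontal axis, percent), with a point for each of 76 of the 77 genes. The 5 genes shown above 25%, named in the plot, lie below all others shown, between 1.43 and 13.2 FPKM.

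Summed over the 77 genes, pseudogenes took a small and even share of the reads, which differed widely from gene to gene. The table lists 1132 pseudogenes named for these genes, of which 467 had a count and 86 were tested, with 12 higher and 11 lower, against 30.1% in each direction among all tested genes. Their counts came to between 4.34% and 4.49% of those of the 77 genes in each sample. They exceeded 50% of the counts of the parent gene for 3 genes, with 163% for RPS28, 132% for RPL9 and 583% for RPS10. For RPL26 and RPL10 they came to 28.9% and 25.7%. RPS10P7 rose, from 139, 125 and 145 counts to 348, 385 and 313 (log2 fold change 1.27, adjusted p = 4.7e-09, edgeR), while RPS10 itself had 48 to 66 counts and -0.33, which was not called. With the counts of its pseudogenes added, RPS10 had a log2 fold change of 0.56 (adjusted p = 9.0e-05, edgeR).

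Of the paralogs, RPL26L1 and RPL22L1 rose. Paralogs are second genes for a ribosomal protein and can replace it in some cells. RPL26L1 (ENSG00000037241, chromosome 5, 172958729 to 172969771, plus strand) had 44.9, 39.7 and 42.6 CPM in siMock and 136, 119 and 131 CPM in siFUBP1. Its log2 fold change was 1.60 (SE 0.084, adjusted p = 1.3e-14, edgeR), and that of RPL26 was -0.05 (adjusted p = 0.70, edgeR). RPL22L1 (ENSG00000163584, chromosome 3, 170864875 to 170870483, minus strand) had 7.72, 5.59 and 6.85 CPM in siMock and 16.6, 16.1 and 15.8 CPM in siFUBP1. Its log2 fold change was 1.26 (SE 0.14, adjusted p = 1.7e-08, edgeR), while RPL22 fell from 206, 173 and 204 CPM to 157, 154 and 149 CPM with -0.34 (SE 0.080, adjusted p = 0.00064, edgeR). The siFUBP1 samples of both paralogs lay above all siMock samples.

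RPS27L, a p53 target, fell from 104, 115 and 118 CPM to 93.6, 77.1 and 78.1 CPM (log2 fold change -0.44, adjusted p = 8.7e-05, edgeR), and RPS27 had -0.09 and was not called. RPL7L1, which acts in ribosome assembly, fell as well, with -0.32 (adjusted p = 0.00060, edgeR). RPL39L, RPL36AL and RPL3L had -0.32, -0.13 and 0.74 and were not called, though RPL39L was called without siFUBP1 replicate 1 (-0.42, adjusted p = 0.036, edgeR), and RPL36AL (-0.38) and RPL39L (-0.41) were called with the GC and length correction. RPL3L was called with limma on log2(FPKM + 1) (0.16, adjusted p = 0.046) and on log2(FPKM + 0.1) (0.54, adjusted p = 0.043). RPL10L, the testis copy of RPL10, had 0 counts in all samples, which allows up to 0.184 CPM in the shallowest. Thus 2 of the 7 tested paralogs rose and 2 fell. That is 28.6% in each direction, next to 30.1% in each direction among all tested genes. The siMock and siFUBP1 ranges were apart for all 7, against 63.9% of all tested genes.

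The naming rule leaves out FAU, which encodes a small subunit protein fused to a ubiquitin-like one, and the small subunit scaffold RACK1. FAU had a log2 fold change of -0.10, and RACK1 had -0.02; neither was called.

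In the other lists of translation genes, more genes rose than fell under TMM scaling, by only 4 to 3 for the chaperones. The lists can share genes, such as EIF3F. Of 16 tested genes from a list of other mRNAs known for TOP tracts, 9 rose and TPT1 alone fell, with -0.33. That is 62.5% called, next to 60.2% of all tested genes (30.1% in each direction). The extremes were EIF3F at 1.12 and NAP1L1 at 0.53 on the high side, and TPT1 and EEF1A1 (-0.08, not called) on the low side. Dedicated chaperones, which escort new ribosomal proteins to the nucleolus, were all called, against 60.2% of all tested genes: 4 of the 7 rose, with PDCD2L at 0.90 and LTV1 at 0.31, and 3 fell. The call of LTV1 was lost without siMock replicate 1 or 2 (adjusted p = 0.058 and 0.060, edgeR) and with the GC and length correction (0.09, adjusted p = 0.38, edgeR). HEATR3, which carries RPL5 and RPL11 into the nucleus, fell by 0.80 on the log2 scale from 30.5, 30.0 and 30.2 CPM to 17.3, 14.5 and 20.2 CPM (adjusted p = 7.3e-07, edgeR). GRWD1, the chaperone of RPL3, fell by 0.76 (adjusted p = 1.4e-07, edgeR), whereas RPL3 was not called.

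Of the 78 mitochondrial ribosomal protein genes, 30 rose and 14 fell, with a median log2 fold change of 0.05, so that 56.4% were called against 60.2% of all tested genes. MRPL1 had 1.02 and MRPS10 had 0.95, against -1.30 for MRPS2 and -1.16 for MRPS28. Of 53 tested genes whose symbol starts with EIF and a number, 24 rose and 10 fell (64.2% called), with a median of 0.17. This list was taken by symbol, so it holds initiation factors and also genes named for them, such as EIF4EBP2. EIF4E3 fell by 1.46 on the log2 scale and EIF4EBP2, a translational repressor, fell by 0.68. EIF3F rose, and EIF3CL had the highest value, 2.30, which was not called (adjusted p = 0.16, edgeR) and rests on 631 counts in siFUBP1 replicate 2 against 72 and 88 in the other two; without that sample it had 0.60 (adjusted p = 0.032, edgeR). In the share of genes called higher, the cytosolic ribosomal protein genes thus had 3.90%, next to 38.5% for the mitochondrial list, 45.3% for the EIF list and 30.1% of all tested genes. With scaling by total count the 3 cytosolic genes called higher became 12 of the 77.

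**Figure D5:**
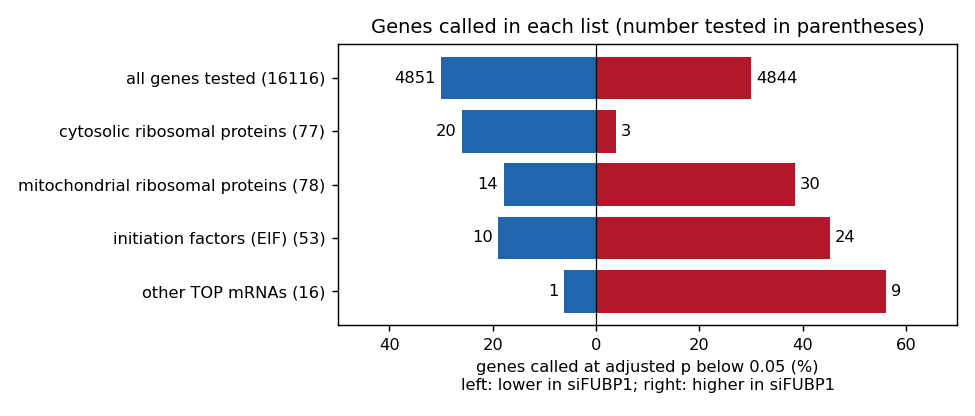
Share of tested genes called at an adjusted p below 0.05 in each list (horizontal axis, percent), lower to the left and higher to the right of 0, with the number of genes at the end of each bar. The cytosolic ribosomal protein genes have 20 lower and 3 higher of 77 (12 and 12 with total counts), next to 4851 and 4844 of all 16116 genes tested.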

How the data were processed

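The authors deposited a single table of 58735 genes with read counts per gene that were not normalized. The submitters' processing notes name HISAT2 2.0.5, StringTie 1.3.3b, featureCounts 1.5.0-p3 and DESeq2 1.16.1 without roles. The genome build, the use of strand and the treatment of reads with several matches are not given in the sources used here. Gene identifiers, starts and ends match GENCODE 29 (GRCh38) for all genes. FPKM values were computed by the authors, with all annotated exons of a gene joined as its length. The deposited signal columns hold group means, the deposited log2 columns hold the authors' fold changes, and the authors' p-values stand beside them; none of these was used.

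The comparison of counts used edgeR 4.0.16 (R 4.3.3; TMM, filterByExpr, robust quasi-likelihood fit and F test, Benjamini-Hochberg adjustment over 16116 genes). The study's own test, DESeq2 with adjusted p below 0.05, was run as an alternative (DESeq2 1.42.0), as were limma 3.58.1 on log2(FPKM + 1) and log2(FPKM + 0.1), other scalings, no filter, pseudogene counts added to the parent gene, a replicate block, leaving out each sample, and a correction for GC content and length of 1 transcript per gene by a smooth trend fitted without the ribosomal protein genes. Removing the mitochondrial genes and taking TMM factors from the other genes were added after the data were seen. Samples were grouped by title. No p was computed over a list. The fits were tested on simulated data with 200 changed genes. There edgeR recovered 98.0% of these and called 11 unchanged genes. With a GC trend added to the siFUBP1 samples, it called 5972 unchanged genes without the GC and length correction and 12 with it. The strength of that trend was set and not taken from these data. The number of false calls in these data is therefore not known.

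The ribosomal protein genes and the gene lists were chosen with earlier results of these data known. Named with values were the 10 highest and 10 lowest log2 fold changes, genes past an absolute value of 1, the 5 highest and 5 lowest mean FPKM, genes of the role lists, tested paralogs and proteins outside the naming rule, and the extremes of the other translation lists. RPL3, RPS6, RPL22, RPS27, pseudogenes and DNASE1L1 were named after their values were seen. The results of 3 genes are not reported here. Limits from a count of 0 cover counting error only, and the 95% intervals of fold changes include the spread between samples.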

Additional observations from a re-analysis of the deposited data

How the results depend on the processing

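The falls of RPL10 (-2.21 to -2.01) and RPLP1 (-1.48 to -1.23), the rises of RPL11 (0.27 to 0.47), RPL26L1 (1.47 to 1.70) and RPL22L1 (1.00 to 1.37) and the fall of RPS19 (-0.59 to -0.31) were called at an adjusted p below 0.05 in all 20 alternative fits. The number of ribosomal protein genes called higher was 3, and 12 with total counts, 5 with the replicate block, 5 with pseudogene counts added, 0 with an absolute log2 fold change above 1, and 1 to 4 when a sample was left out (1 without siMock replicate 2). The number called lower was 20, and 12 with total counts, 8 with limma on log2(FPKM + 1) without a filter, 33 with the GC and length correction, 35 with that correction and the replicate block together, 2 with an absolute log2 fold change above 1, and 12 to 24 when a sample was left out (12 without siMock replicate 1, all among the 20). Total counts shifted the median of all genes by 0.10 on the log2 scale and the medians of the ribosomal protein genes to 0.009 for all 77, -0.0102 for the small and 0.051 for the large subunit. Under the rule with an absolute log2 fold change above 1, all genes gave 1315 higher and 1472 lower. The deviations of same-numbered samples had correlations of -0.0047, 0.017 and 0.12. So few and low values cannot decide whether same-numbered samples were handled together, and the labels do not say. The replicate block gave 5 higher and 25 lower. The cause of these differences was not tested.

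Signs turned for genes that were not called. Total counts gave 0.050 for RPL26, 0.0099 for RPL7A, 0.0026 for RPS27, 0.081 for RACK1 and 0.020 for EEF1A1, and upper-quartile factors gave 0.028 for RACK1. The GC and length correction, without and with the replicate block, gave -0.167 and -0.164 for RPL17, -0.025 and -0.025 for RPL19, -0.0050 and -0.0078 for RPL23, -0.00325 and -0.00387 for RPL39, -0.061 and -0.063 for RPL6, -0.193 and -0.194 for RPS6, and 0.045 and 0.045 for FAU. Of these RPS6 was called (adjusted p = 0.0091 and 0.0037, edgeR). Pseudogene counts gave 0.56 for RPS10, -0.0244 for RPL17 and -0.00851 for RPS2. Leaving out a sample gave -0.0835 to 0.168 for RPL17, -0.0337 to 0.0692 for RPL19, -0.114 to 0.0163 for RPL26, -0.0348 to 0.0445 for RPL3, -0.0686 to 0.1004 for RPS2, -0.00215 to 0.220 for RPS23, -0.0701 to 0.0324 for RACK1 and -0.138 to 0.00247 for EEF1A1.

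Depth limits RPS10, RPL36A and RPL17, which had fewer than 200 counts per sample. Differences within about 0.2 on the log2 scale are limited by the spread between samples (median standard error 0.085) and by the choice of scaling.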
